A study of Apis mellifera with 9 samples.

Results

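The genes described here are those whose transcript level differed widely between honey bee (Apis mellifera) larval samples that had received the same food. A level is given in CPM, which is the read count of a gene scaled to the sum over all features of its library, in parts of 1000000. The genes were chosen by their CPM values: a gene was taken when it averaged 2 CPM or more over the 9 libraries and when its highest library was at least 2.5 times its lowest within a diet, in at least 2 of the 3 diets. These 53 genes were found among 9316 genes that averaged 2 CPM or more and 15314 features in all. The spread within diets thus chose them and is given as a description, without a test.

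Larvae had been grafted when newly hatched and fed in the laboratory for 3 days on a diet of royal jelly, glucose, fructose and yeast extract. The diets were a control diet without quercetin, one with 0.1 mM quercetin and one with 0.25 mM quercetin, with 3 libraries each, and each replication held 10 to 12 larvae per diet. All eggs came from 1 research apiary, and the labels do not say whether the replications came from separate colonies, so every spread given here is that between these pools. The source field reads whole larvae while the extraction step speaks of midguts, so the tissue is not settled.

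Honey bee larvae grow quickly on royal jelly and pass through several moults, and their transcript levels change with age, nutrition and exposure to microbes. Quercetin is a plant flavonol present in pollen, nectar and honey, which honey bees oxidise with cytochrome P450 enzymes. A difference between diets is read against the spread between pools of larvae on the same diet, and the genes below passed a threshold on that spread.

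The features carry GB identifiers and no names. None of them matched the reference gene table (0 of 15314), so no function is given for any gene, and neither tissue markers nor pathways could be examined. The control and 0.1 mM libraries are named by their replication number. All 3 columns of the 0.25 mM diet have 1 common heading and are called a, b and c, which are names only. Library totals on features ran from 34456449 to 42874091 reads, at which 3 reads correspond to 0.07 to 0.0871 CPM.

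Wide spread was rare in these libraries. The median of the 9316 genes had a highest-to-lowest ratio of 1.12 in control, 1.13 at 0.1 mM and 1.24 at 0.25 mM. A ratio of at least 2.5 was reached by 41 of the 9316 genes in control, 75 at 0.1 mM and 144 at 0.25 mM. It was reached in no diet by 9129 genes, in 1 diet by 134, in 2 diets by 33 and in all 3 by 20. Of the 53 genes, 29 passed the ratio in control, 48 at 0.1 mM and 49 at 0.25 mM, with median ratios of 2.58, 4.40 and 3.71. The commonest combination was 0.1 mM with 0.25 mM and without control, in 24 genes.

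Most of the 53 were minor transcripts. Their median of the 9-library mean was 6.58 CPM, against 31.7 CPM for all 9316 genes, and 33 of them averaged under 10 CPM. The largest mean was 612 CPM. All 126 ratios of at least 2.5 had an exact 95% lower bound above 1 for counting error, and 92 of them had one of at least 2.5. These bounds cover counting error only. They were taken on the same highest and lowest libraries that chose the genes, with no allowance for that choice. A bound above 1 was thus largely set by the rule and is no test of the spread. The weakest was the control ratio of GB52184-RA, 15 reads in control 3 against 3 reads in control 2, with a lower bound of 1.24.

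Near the threshold, GB45748-RA and GB45860-RA were taken with second-largest ratios of 2.53 and 2.56, while GB43330-RA and GB55213-RA were left out at 2.49 and 2.47. The number of genes taken was 35 without 0.1 mM replicate 1 and 34 without 0.25 mM library c, and lay between 37 and 51 without any other single library. A ratio cannot grow when a library is left out of its diet, so that the number fell was largely set in advance.

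The libraries that were high together differed from one set of genes to another, and no single library was high throughout. Control 1 was the highest control in 21 of the 53 genes, control 2 in 18 and control 3 in 14. These shares of 39.6%, 34% and 26.4% were near those of the 9263 other genes, at 42.8%, 33.3% and 23.9%. Replicate 2 was the highest 0.1 mM library in 32 genes, or 60.4%, against 15.7% of the other genes. For replicate 1 it was 13 genes, or 24.5% against 23.2%, and for replicate 3 it was 8, or 15.1% against 61.1%. Library b was the highest of the 0.25 mM diet in 26 genes, or 49.1% against 35.2%. Library a was highest in 19, or 35.8% against 44%, and c in 8, or 15.1% against 20.7%. The most frequent combination was control 2 with 0.1 mM replicate 2 and library b, which held 15 of the 53 genes, or 28.3%, against 1.47% of the 9263 other genes. The next 2 combinations held 5 genes each. The shares of the other genes were taken on CPM without TMM scaling, which rescales library totals. At 0.1 mM the TMM factors were 0.989, 1.00 and 1.06 in replicates 1, 2 and 3. The median ratio of the 9316 genes there was 1.13, so a small difference in scaling can change which library is highest. How far scaling shaped the shares of the other genes was not tested.

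**Figure D1:**
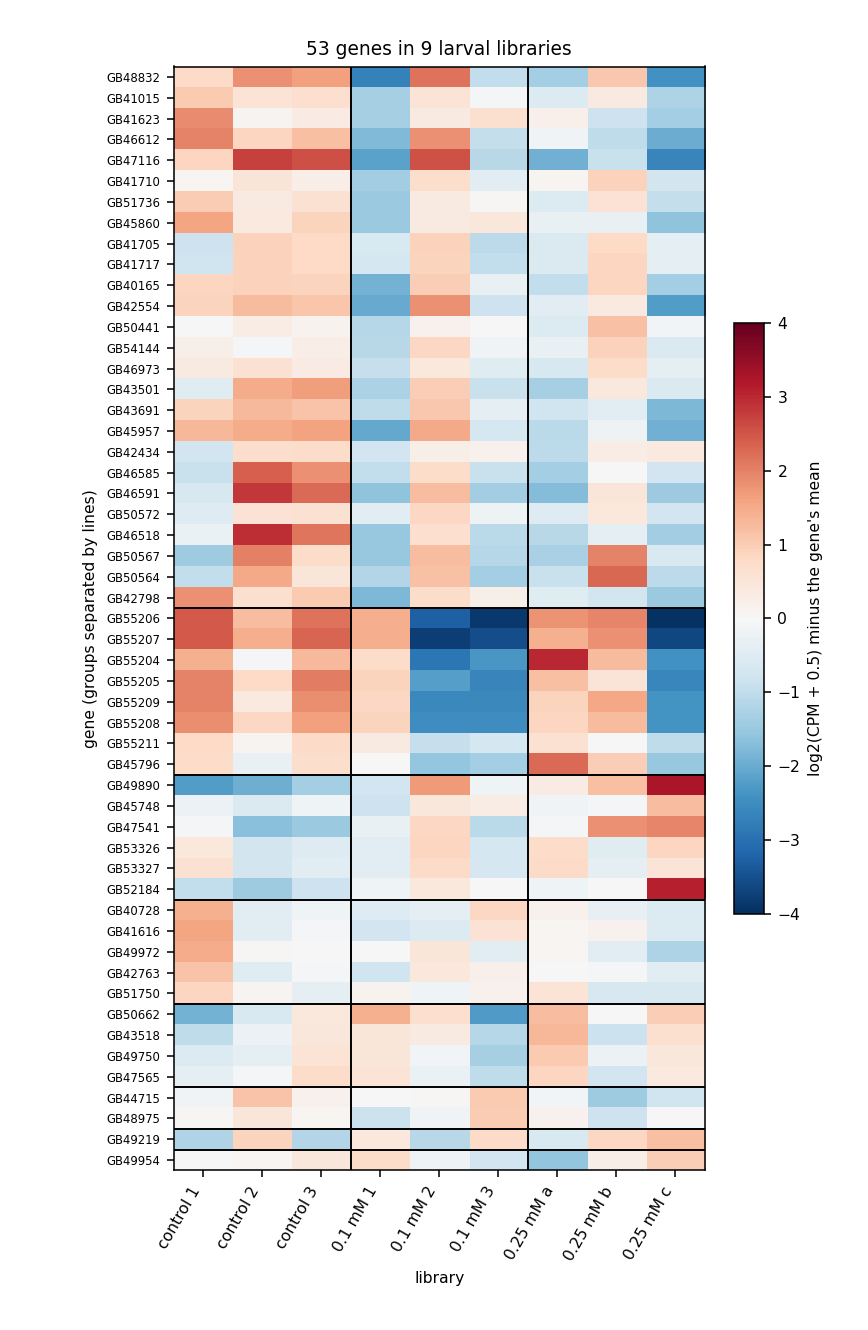
Levels of the 53 genes (rows) in the 9 libraries (columns), as log2(CPM + 0.5) minus the gene's own mean, from blue (low) to red (high). Horizontal lines separate groups of genes with like profiles and vertical lines separate diets; the 8 genes of the second block are blue in 0.1 mM replicates 2 and 3 and in 0.25 mM library c.

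Libraries were also compared by how far each deviated from the mean of its diet. Across the 53 genes, the deviations of control 2 and 0.1 mM replicate 2 correlated with r = 0.48, those of 0.1 mM replicate 1 and library a with r = 0.57, and those of control 1 and library a with r = 0.48. Control 2 and library a ran opposite to each other, with r = -0.60, as did control 3 and 0.1 mM replicate 3 with r = -0.62. Library b went less closely with the other 2 libraries of the commonest combination, at r = 0.23 with control 2 and 0.12 with 0.1 mM replicate 2, where library c had 0.29 and 0.33. In the 9263 other genes the first 5 values were 0.04, 0.38, -0.17, 0.19 and -0.12. Deviations of 3 libraries from their own mean add up to 0, which by construction makes correlations within a diet negative on balance, and genes are not independent points. Within 0.25 mM, library c ran opposite to both a (r = -0.68) and b (r = -0.64) in the 53 genes. In the other genes it was a that stood apart, with r = -0.87 to b and -0.77 to c, while b and c had r = 0.36.

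**Figure D2:**
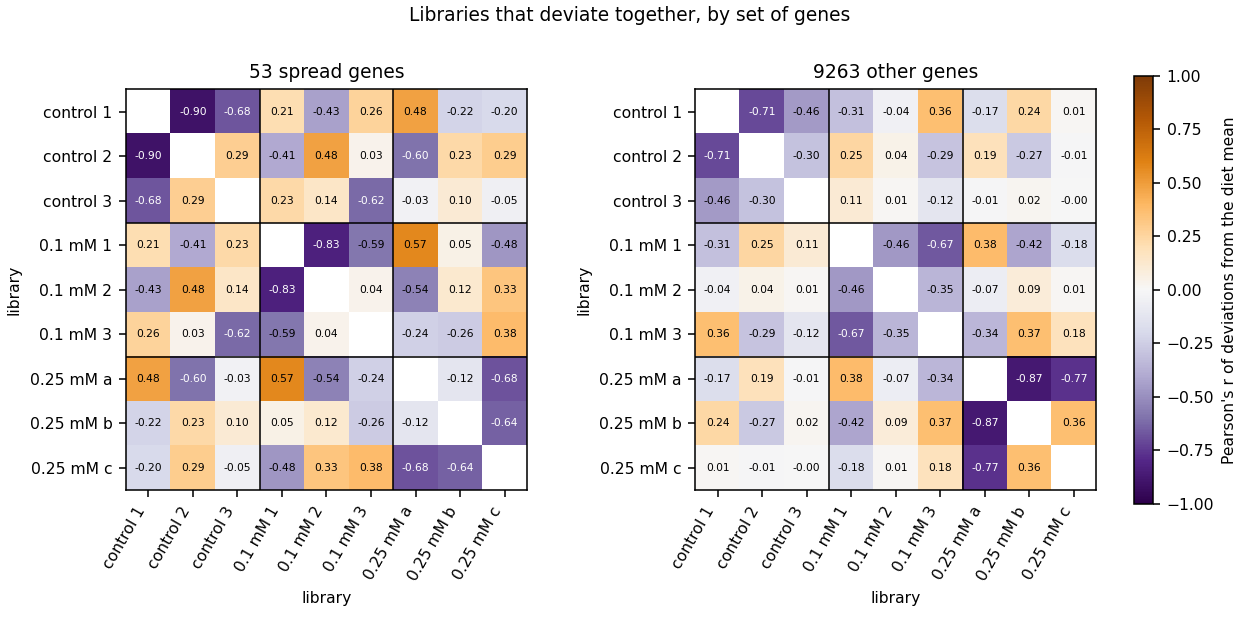
Pearson's r between pairs of libraries of their deviations from the diet mean in log2(CPM + 0.5), across the 53 genes of wide spread (left) and the 9263 other genes (right), with lines separating diets. Control 2 goes with 0.1 mM replicate 2 at 0.48 on the left and 0.04 on the right.

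Average-linkage clustering of the 53 profiles, cut at a distance of 0.5 (1 minus r), gave 5 groups of at least 4 genes, which held 49 genes. A pair and 2 single genes made up the rest. These groups were formed after the values had been seen and are named here by their most abundant gene. The group of GB55206-RA held the same 8 genes under each of 4 other settings: cuts of 0.4 and 0.6, complete linkage, and TMM-scaled levels. The group of GB48832-RA had 26 genes, which became 16 at the cut of 0.4 and 9 with complete linkage. Between pairs of these 26 genes the lowest r was -0.17 and the median 0.73.

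The 8 genes of the GB55206-RA group were all lowest in the same 3 libraries, and 7 of them, all but GB55211-RA, had at most 0.698 CPM there. In these 7 the ratio within 0.25 mM ran from 31.1 to 241. GB55206-RA had 63.3, 26.8 and 51.7 CPM in control 1, 2 and 3. It had 31.3, 0.698 and 0.292 CPM in 0.1 mM replicates 1, 2 and 3, and 40, 44.6 and 0.256 CPM in libraries a, b and c. It was low in 0.1 mM replicates 2 and 3 and in library c, each of which lay under every other library by a wide margin. GB55207-RA had 49.2, 24.1 and 44.8 CPM in the controls, 23.9, 0.168 and 0.268 CPM at 0.1 mM, and 23.9, 31.5 and 0.23 CPM at 0.25 mM. The same 3 libraries were low.

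GB55208-RA and GB55209-RA had no read in 0.1 mM replicates 2 and 3, and 1 and 3 reads in library c. In 0.1 mM replicate 1 they had 176 and 184 reads, so their ratios within 0.1 mM were at least 55.6 and 58.1, taken against 3 reads in replicate 2. Within 0.25 mM, library b had 253 and 341 reads. The ratio of b to c was 241 for GB55208-RA, with a 95% counting interval of 42.9 to 9572, and 108 for GB55209-RA, with 36.8 to 529. The controls were all on the high side, at 9.49, 4.44 and 8.23 CPM for GB55208-RA and 11.4, 3.45 and 10.4 CPM for GB55209-RA.

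GB55204-RA and GB55205-RA behaved alike, apart from the level in library a. GB55204-RA had 14.5, 4.85 and 13.4 CPM in the controls, 8.71, 0.251 and 0.608 CPM at 0.1 mM, and 44.7, 12.9 and 0.538 CPM at 0.25 mM, so that its highest library was a. GB55205-RA had 20.8, 8.94 and 21.8 CPM in the controls, 9.42, 0.67 and 0.365 CPM at 0.1 mM, and 12, 7.11 and 0.384 CPM at 0.25 mM. GB55211-RA moved less, with 4.56, 2.67 and 4.5 CPM in the controls, 3.28, 1.06 and 1.29 CPM at 0.1 mM, and 3.94, 2.44 and 0.948 CPM at 0.25 mM.

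Of these 8 genes, 7 have identifiers from GB55204-RA to GB55211-RA, 6 of them in an unbroken run. Where they lie in the genome and how alike they are is not known from the table, and whether the counting could divide reads among like copies is not known. The features with neighbouring numbers that the rule left out had the same 3 libraries lowest where the number was close. GB55210-RA, which averaged 1.51 CPM and reached the ratio of 2.5 in 1 diet, had at most 0.876 CPM in those 3 libraries and at least 1.15 CPM in the other 6. GB55212-RA had at most 2.51 CPM in them and at least 3.89 CPM in the rest, and GB55213-RA at most 2.9 and at least 4.12 CPM. GB55214-RA had the same 3 libraries lowest, at 3.83, 6.18 and 6.5 CPM in 0.1 mM replicates 2 and 3 and library c, with at least 7.7 CPM in the rest. GB55203-RA, the number just below, was not lowest there: its smallest value was 9.29 CPM, in library b, and its largest 20.5 CPM, in 0.1 mM replicate 2.

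**Figure D3:**
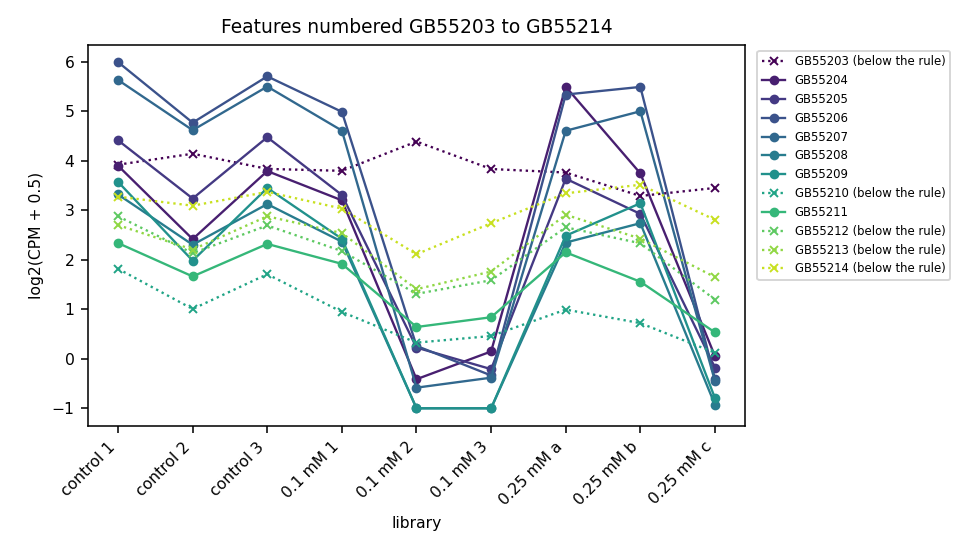
Levels of the 12 features numbered GB55203 to GB55214 in each library, as log2(CPM + 0.5), with solid lines for genes taken by the rule and dotted lines for those left out. GB55204 to GB55209 fall to the bottom of the plot in 0.1 mM replicates 2 and 3 and in 0.25 mM library c, and GB55203 does not.

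The eighth gene of the group, GB45796-RA, has a distant number. It had 2.47, 0.958 and 2.41 CPM in the controls, 1.24, 0.112 and 0.195 CPM at 0.1 mM, and 8, 3.05 and 0.128 CPM at 0.25 mM. Among 10682 genes that were not taken and averaged 0.5 CPM or more, 3 had a correlation of at least 0.9 with the mean profile of the group over the 9 libraries. These were GB45797-RA (r = 0.97), whose number follows that of GB45796-RA, GB55212-RA (r = 0.96) and GB55213-RA (r = 0.95). GB45797-RA averaged 1.02 CPM and had no read in 0.1 mM replicate 2, where 3 reads would be 0.0838 CPM.

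Library totals did not single out the 3 low libraries. They had 35804851, 41090037 and 39047388 reads on features in 0.1 mM replicates 2 and 3 and library c, within the range of the other 6. Reads that did not align made up 17.3%, 17.2% and 18.4% of all reads in these 3 libraries, and 17% to 18% in the rest, so that library c had the largest share of the 9. The part of these shares in the result was not tested. In bulk libraries, fewer cells of a type and less RNA per cell cannot be told apart.

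The group of GB48832-RA, with 26 genes, was highest on average in control 2 and 3 and in 0.1 mM replicate 2. The mean over the genes of log2(CPM + 0.5), minus each gene's own mean, was 0.31, 1.16 and 1.03 in control 1, 2 and 3. It was -1.39, 0.97 and -0.53 in 0.1 mM replicates 1, 2 and 3, and -0.78, 0.37 and -1.14 in libraries a, b and c. Control 1 was the lowest control in 18 of the 26 genes and lay near library b in this mean. Replicate 2 was the highest 0.1 mM library in 24 of the 26 and replicate 1 the lowest in 23. Library b was the highest of the 0.25 mM diet in 21, while c was the lowest in 17 and a in 9. The summed level of the group was 1152, 1377 and 1321 CPM in control 1, 2 and 3. It was 179, 1577 and 442 CPM in 0.1 mM replicates 1, 2 and 3, and 373, 855 and 215 CPM in libraries a, b and c. The controls were thus close to each other in sum, with a ratio of 1.2, while the ratio was 8.8 at 0.1 mM and 3.98 at 0.25 mM. Gene by gene the controls were not close. Their ratio was at least 2.5 in 13 of the 26 genes. Its median was 2.43, against 4.75 at 0.1 mM and 3.56 at 0.25 mM. Control 1 was the highest control in 6 genes and the lowest in 18, so that differences partly cancelled in the sum.

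GB48832-RA supplied the largest part of that sum. Its level was 275, 571 and 508 CPM in the controls, 24.5, 731 and 81.1 CPM at 0.1 mM, and 63, 346 and 29.7 CPM at 0.25 mM. The 0.1 mM diet alone spanned from the lowest to the highest of all 9 libraries, replicate 2 being 29.8 times replicate 1 with a 95% counting interval of 27.9 to 31.9. GB46612-RA had 153, 69.9 and 89.2 CPM in the controls, 11, 138 and 19.5 CPM at 0.1 mM, and 34.4, 18.7 and 9.3 CPM at 0.25 mM. In this gene 0.1 mM replicate 2 lay among the controls and all 5 other quercetin libraries lay below them. GB47116-RA had 44.6, 164 and 149 CPM in the controls, 5.16, 145 and 10.9 CPM at 0.1 mM, and 6.11, 12.9 and 3.51 CPM at 0.25 mM, again with replicate 2 among the controls.

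GB41015-RA and GB41623-RA, which averaged 74.3 and 73.1 CPM, were the most abundant genes of the group after GB48832-RA. GB41015-RA had 134, 94.8 and 104 CPM in the controls, 25.7, 94.8 and 60.8 CPM at 0.1 mM, and 44, 83.8 and 26.9 CPM at 0.25 mM. GB41623-RA was 1 of the 6 genes of the group in which control 1 was the highest control, at 214 against 61.9 and 73 CPM in control 2 and 3. It had 22.5, 73.9 and 90.4 CPM at 0.1 mM and 67.2, 32.4 and 22.1 CPM at 0.25 mM.

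Some genes of the group were spread in the controls as well, with control 1 far below control 2 and 3. The 3 genes with the largest ratio that was reached in every diet were of this kind. GB50567-RA had 0.268, 7.84 and 2.92 CPM in the controls, 0.212, 4.3 and 0.438 CPM at 0.1 mM, and 0.327, 7.65 and 0.845 CPM at 0.25 mM. One library per diet stood out, control 2, replicate 2 and b, and the ratios were 29.2, 20.3 and 23.4. GB46591-RA had 0.912, 14.9 and 10 CPM in the controls, 0.212, 4.66 and 0.341 CPM at 0.1 mM, and 0.163, 2.54 and 0.307 CPM at 0.25 mM. GB50564-RA had 0.563, 5.54 and 2.44 CPM in the controls, 0.423, 4.19 and 0.316 CPM at 0.1 mM, and 0.63, 9.73 and 0.512 CPM at 0.25 mM, with the same libraries high.

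Among the 5 genes that came next in this ranking, GB46518-RA, GB43501-RA and GB46585-RA belonged to the same group. GB46518-RA had 0.938, 13 and 7.17 CPM in the controls, 0.106, 2.23 and 0.316 CPM at 0.1 mM, and 0.303, 0.806 and 0.154 CPM at 0.25 mM. GB46585-RA had 1.02, 14.3 and 9.53 CPM in the controls, 0.926, 4.25 and 1.02 CPM at 0.1 mM, and 0.606, 2.32 and 1.18 CPM at 0.25 mM. GB43501-RA had 3.35, 14.7 and 16.6 CPM in the controls, 1.75, 10.2 and 2.41 CPM at 0.1 mM, and 1.63, 6.74 and 3.15 CPM at 0.25 mM. In all 3 genes control 1 was the lowest control, replicate 2 the highest at 0.1 mM and b the highest at 0.25 mM.

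**Figure D4:**
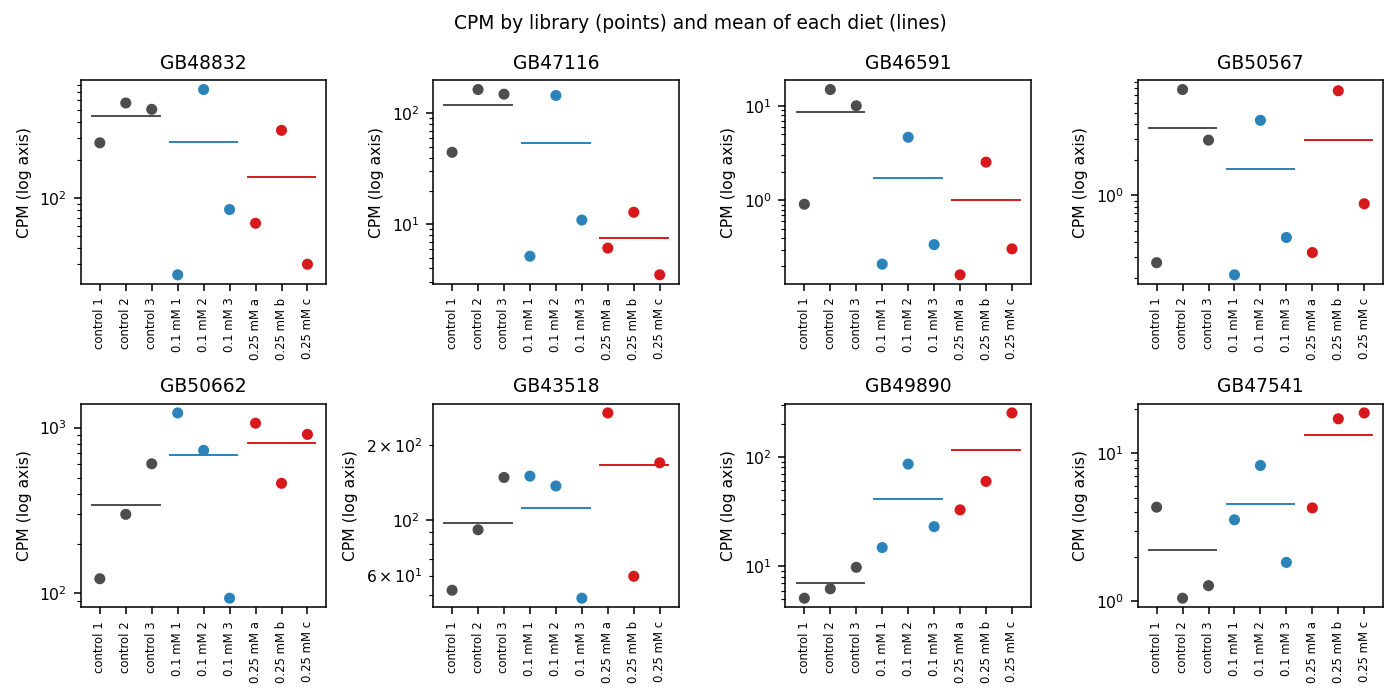
CPM of 8 genes by library on log axes, with 1 point per library and a line at the mean of each diet, control in grey, 0.1 mM in blue and 0.25 mM in red. In the upper row 0.1 mM replicate 2 and library b are the highest of their diets; in the lower row GB50662 and GB43518 are lowest in 0.1 mM replicate 3, and GB49890 is highest in library c.

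A pair of genes in the group had nearly the same counts in the controls and close counts in the quercetin libraries. GB41705-RA and GB41717-RA had 494 and 494 reads in control 1, 1558 and 1558 in control 2, and 1630 and 1629 in control 3. At 0.1 mM they had 575 and 532, 1613 and 1559, and 463 and 472 reads, and at 0.25 mM 679 and 662, 1688 and 1764, and 707 and 698. Whether these are 2 genes or a shared sequence is not given, and their counts are uncertain as separate values. Among the genes not taken, GB50062-RA and GB40445-RA had profiles nearest to the mean of the group (r = 0.99 and 0.98 over the 9 libraries), with smaller ranges of 3.25 to 9.14 CPM and 7.68 to 15.9 CPM.

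The group of GB49890-RA, with 6 genes, was highest on average in library c and in 0.1 mM replicate 2, and lowest in control 2 and 3. Replicate 2 was the highest 0.1 mM library in all 6 genes, and library c the highest of the 0.25 mM diet in 5. GB49890-RA had 5.12, 6.24 and 9.81 CPM in the controls, 14.8, 85.9 and 23 CPM at 0.1 mM, and 32.8, 59.7 and 252 CPM at 0.25 mM. No quercetin library fell within the range of the controls. GB47541-RA had 4.32, 1.04 and 1.27 CPM in the controls, 3.55, 8.27 and 1.83 CPM at 0.1 mM, and 4.27, 17.1 and 18.7 CPM at 0.25 mM, where libraries b and c lay above all controls and a lay just under control 1.

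GB52184-RA was near its floor in the controls, at 0.295, 0.0871 and 0.381 CPM, and had 0.9, 1.62 and 1.07 CPM at 0.1 mM and 0.91, 1.1 and 13.2 CPM at 0.25 mM, so that 1 library held most of its reads. GB53326-RA and GB53327-RA have consecutive numbers and were high in 4 libraries, control 1, 0.1 mM replicate 2, a and c. GB53326-RA had 3.73, 1.42 and 1.73 CPM in the controls, 1.88, 5.25 and 1.44 CPM at 0.1 mM, and 4.76, 1.76 and 5.28 CPM at 0.25 mM.

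The 4 genes of the GB50662-RA group were lowest in 0.1 mM replicate 3 among the quercetin libraries and included the most abundant gene of the 53. GB50662-RA had 123, 300 and 605 CPM in the controls, 1225, 728 and 93.6 CPM at 0.1 mM, and 1063, 461 and 910 CPM at 0.25 mM. Control 3, 0.1 mM replicate 1 and library a were the highest of their diets. GB43518-RA had 52.4, 91.5 and 148 CPM in the controls, 150, 137 and 48.7 CPM at 0.1 mM, and 268, 59.6 and 169 CPM at 0.25 mM, with the same 3 libraries highest. The summed level of all 53 genes was lowest in 0.1 mM replicate 3, at 718 CPM, and ran from 1636 to 2618 CPM in the other 8 libraries.

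The 5 genes of the GB40728-RA group had control 1 as their highest library. GB40728-RA had 82.5, 22 and 26.8 CPM in the controls, 20.9, 23.5 and 54 CPM at 0.1 mM, and 34, 24.2 and 20.4 CPM at 0.25 mM. GB49972-RA had 8.15, 2.7 and 2.62 CPM in the controls, 2.59, 3.77 and 1.73 CPM at 0.1 mM, and 2.75, 1.81 and 0.794 CPM at 0.25 mM. Among the 4 genes outside these groups, GB49219-RA was spread in every diet, with 1.5, 8.04 and 1.55 CPM in the controls, 5.74, 1.62 and 7.4 CPM at 0.1 mM, and 2.5, 7.65 and 10.1 CPM at 0.25 mM.

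Genes with close numbers often had like profiles. Of the 53, 19 lay within 10 numbers of another, which gave 13 neighbouring pairs, and 12 of these pairs had both genes in 1 group. The median correlation of log2(CPM + 0.5) over the 9 libraries was 0.97 for these 13 pairs and 0.27 for 9258 such pairs among all 9316 genes. It was 0.14 over all 1378 pairs of the 53 genes. Several of the 13 pairs are successive members of the run from GB55204-RA to GB55211-RA, with r from 0.91 to 0.998. The lowest of the 13 was 0.72, for GB41705-RA and GB41710-RA. Most of the 9316 genes had little spread, so their median is not a like-for-like comparison. Groups were formed on the same correlations, and these values are a description.

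A smaller share of the variance lay between diet means in these genes than in all genes. The median share of the variance of log2(CPM + 0.5) that lay between diet means was 32.1% in the 53 genes and 57.7% in all 9316. At least 50% lay between diets in 9 of the 53 genes, or 17%, and in 5468 of all genes, or 58.7%. The largest ratio within a diet exceeded the ratio between the highest and the lowest diet mean in 50 of the 53 genes and in 63.8% of all genes. Since the rule asked for a wide spread within diets, a low share is in part built in. With 3 libraries per diet, part of the variance lies between diet means even where diet has no effect. The shares are thus not amounts explained by diet.

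**Figure D5:**
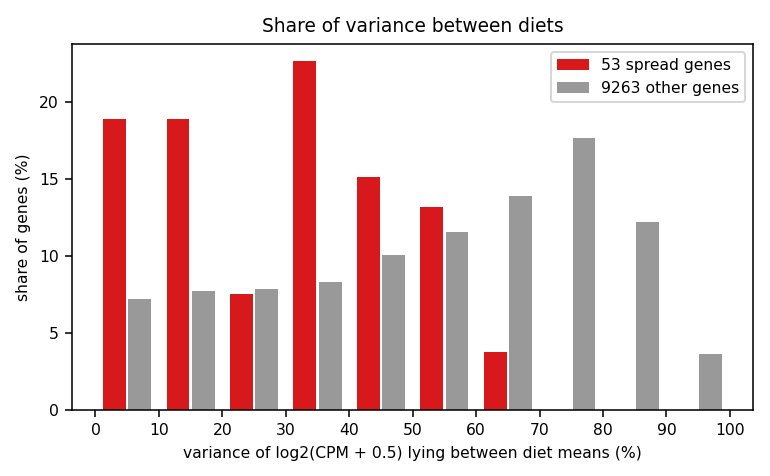
Share of genes (percent, bars from 0) by the share of their variance in log2(CPM + 0.5) that lies between diet means, in steps of 10 percentage points, for the 53 genes of wide spread (red) and the 9263 other genes (grey). The red bars end below 70%, the highest value being 68.6% for GB49890-RA.

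Differences between diets were tested with edgeR's quasi-likelihood test over all 11508 genes kept by its filter, with Benjamini-Hochberg adjustment over all of them and a threshold of 0.05. All 53 genes were among those tested. The test takes the spread within diets as its error, and the median standard error of a log2 difference at 0.25 mM against control was 0.62 in the 53 genes and 0.13 in all genes. A gene chosen for that spread thus passes less easily, and the counts below are descriptions beside those of all genes.

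For 0.25 mM against control, 9 of the 53 genes passed the test, or 17%, where 35.6% of all genes did. Of these, 3 were higher, beside 17.1% of all genes, and 6 were lower, beside 18.5%. The 3 that rose all belonged to the GB49890-RA group and the 6 that fell all to the GB48832-RA group. The median log2 difference was -0.53 in the 53 genes and 0.01 in all genes, and 35 of the 53 had a negative value. On TMM-scaled CPM, the 3 libraries of 0.25 mM lay above all controls in 4 of the 53 genes, beside 22.4% of all 9316 genes, and below all controls in 9, beside 27.6%. GB47541-RA, 1 of the 4, overlapped on unscaled CPM, with 4.27 CPM in library a against 4.32 CPM in control 1.

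The 3 genes that rose were GB52184-RA, GB49890-RA and GB47541-RA. The log2 difference of GB49890-RA was 4.09 with a standard error of 0.91 and an adjusted p of 0.0128 in edgeR, and that of GB52184-RA was 4.34 with a standard error of 1.13 and an adjusted p of 0.0199. Without library c the log2 differences of these 2 genes were 2.79 and 2.03. For GB47541-RA it was 2.67, with a standard error of 0.74 and an adjusted p of 0.0239 in edgeR. The 2 largest decreases were those of GB46518-RA, with a log2 difference of -3.98, a standard error of 1.11 and an adjusted p of 0.0244 in edgeR, and GB47116-RA, with -3.93, a standard error of 1.18 and an adjusted p of 0.0307. GB48832-RA, the most abundant gene of its group, had 63, 346 and 29.7 CPM at 0.25 mM against 275, 571 and 508 CPM in control, so that the diets overlapped through library b, and it did not pass the test.

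The number of calls moved with single libraries. Of the 53 genes, 0 were called without control 2, 1 without control 3, 3 without library b, 2 without c and 14 without a, beside 1405, 1908, 1568, 1112 and 6491 of all genes. GB49890-RA lost its call without control 2 (edgeR, adjusted p = 0.0527) and kept it without each other library. GB47541-RA, GB46518-RA and GB47116-RA each lost theirs without control 2, control 3, b or c, with adjusted p between 0.0541 and 0.11 in edgeR. Their log2 differences in those fits were 2.34 to 2.48, -4.81 to -3.19 and -4.53 to -3.58 for GB47541-RA, GB46518-RA and GB47116-RA, so the sign held and the size stayed near that with all libraries. GB52184-RA lost it without any 1 of the controls, with adjusted p between 0.0553 and 0.0732.

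For 0.1 mM against control, none of the 53 genes passed the test in edgeR. Of the 53, 3 had an unadjusted p under 0.05, beside 1037 of all 11508 genes. DESeq2 also called 0 of the 53 and 143 of all genes. In edgeR, 0.0695% of all genes passed as higher and 0% as lower. The median log2 difference was -0.71 in the 53 genes and 0.00 in all genes, and 44 of the 53 had a negative value. No 95% interval of the 53 excluded a 2-fold difference in both directions, whereas 10417 of all 11508 did, so a 2-fold difference was not excluded for any of them. The 3 libraries of 0.1 mM lay above all controls in 2 genes, beside 12.5% of all genes, and below them in 1, beside 14.9%. The 2 were GB49890-RA and GB52184-RA, and the 1 was GB45860-RA, which had 9.53, 35.7 and 37.9 CPM at 0.1 mM against 84.5, 36.7 and 52.1 CPM in control; on CPM not scaled by TMM its diets overlapped.

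In the GB55206-RA group, 2 of the 3 libraries at 0.1 mM and 1 of the 3 at 0.25 mM were low, and no control was. The summed level was 136 ± 52.9 CPM in control, 31.1 ± 48.8 CPM at 0.1 mM and 87 ± 74.2 CPM at 0.25 mM (SD, n = 3 each). None of the 8 genes passed the test at either dose, with smallest adjusted p of 0.589 at 0.1 mM and 0.354 at 0.25 mM against control in edgeR. Their log2 differences ran from -2.35 to -1.04 at 0.1 mM and from -1.32 to 1.02 at 0.25 mM. In summed level, 0.1 mM replicate 1 and libraries a and b had 87.4, 142 and 116 CPM. The controls ran from 76.2 to 176 CPM. Single genes could lie outside the controls, as GB55204-RA did with 44.7 CPM in library a against 4.85 to 14.5 CPM. An order by dose was not tested.

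For 0.25 mM against 0.1 mM, none of the 53 genes and 0% of all genes passed the test in edgeR. An unadjusted p under 0.05 was found for 5 of the 53, beside 3925 of all 11508 genes. The smallest adjusted p among the 53 was 0.11, for GB45796-RA, with a log2 difference of 2.92 ± 1.12. DESeq2 called 2075 of all genes and 1 of the 53, GB44715-RA, lower at 0.25 mM with an adjusted p of 0.0488. It had 1.68, 0.367 and 0.845 CPM at 0.25 mM against 1.85, 1.93 and 4.36 CPM at 0.1 mM and was the 1 gene of the 53 whose libraries did not overlap between the doses, lower at 0.25 mM, beside 18% of all genes; 0 were apart as higher, beside 14.1%. Without library a, 3 of the 53 genes were called in edgeR, beside 5367 of all genes.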

How the data were processed

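Raw, not normalised read counts per feature were deposited by the authors for the 9 libraries in a single table; CASAVA 1.8, HTSeq and edgeR appear in the submitters' processing notes with no step named. Which aligner, build, annotation and strand setting they used was not given in the sources used here, and overlapping genes cannot be told apart. HTSeq's 5 summary rows (12.1% to 13.8% of reads with no feature) were left out of totals and fits. Columns were tied to diets by heading, and no column was left unused (0).

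The genes, groups and 17 gene lists were chosen with earlier results of these data known; 0 lists could be evaluated without gene names. CPM used feature totals. Diets were compared in R 4.3.3 with edgeR 4.0.16 (filterByExpr, TMM, glmQLFTest, all 9 libraries), tested on simulated counts, and in DESeq2 1.42.0. Ratio bounds are Clopper-Pearson intervals for counting error, with no allowance for how the genes and libraries were chosen. Zero counts were bounded at 3 reads per library.

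Genes named in the text are the 5 most abundant, the 8 with the largest smallest ratio, the top 2 of the 4 commonest combinations, the top 2 calls per direction, those next to the threshold, and runs of consecutive numbers. The remainder were named after their values were seen. Alternatives were RLE factors, no filter, only the compared diets, other thresholds and leaving out each library.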

Additional observations from a re-analysis of the deposited data

How the results depend on the processing

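The number of genes taken was 53 with TMM-scaled levels, of which 51 were the same genes, and 40 at a ratio of 3. It was 85 at a ratio of 2, 30 with a floor of 5 CPM and 20 when all 3 diets had to pass. Without 1 library it was 34 to 51, where a fall was largely set in advance. The shares of genes highest in control 1, 0.1 mM replicate 2 and library b were 37.7%, 60.4% and 49.1% with TMM scaling, and 33.3%, 63.3% and 56.7% with the higher floor, which takes a subset of the same genes. The median share of variance between diets was 31.2% with TMM scaling and 27.3% to 40.1% without 1 library. Of the 53, genes called at 0.25 mM against control numbered 9 with RLE factors or no filter and 10 with DESeq2 or only the 2 diets. Beside these, 4086 of 11508, 3880 of 13966, 4503 of 11798 and 2296 of 11393 genes were called in the same order. Without 1 library it was 0 to 14 of the 53, beside 1112 to 6491 of all genes. At 0.1 mM against control the count among the 53 was 0 under each alternative run. Between the doses it was 1 with DESeq2, 0 to 3 without 1 library, and 0 otherwise. Same-numbered control and 0.1 mM libraries did not go together throughout. Their deviations correlated with r = 0.21, 0.48 and -0.62 in the 53 genes and -0.31, 0.04 and -0.12 in the 9263 other genes. The replication number was also used as a replicate block in edgeR, on the control and 0.1 mM libraries only. This called 0 of the 53 genes and 23 of all genes at 0.1 mM. The same libraries without the block gave 0 and 38. With the block 19 of the 53 had an unadjusted p under 0.05, beside 1622 of all 11356 genes tested. Without the block it was 6 of the 53, beside 2049 of all 11356. No log2 difference of the 9 called genes changed sign under the alternatives run; DESeq2 gave GB52184-RA no adjusted p. Depth limits the lowest values, where 3 reads are 0.07 to 0.0871 CPM.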
